A study of Caenorhabditis elegans with 15 samples.

Results

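The genes described here encode the enzymes that load amino acids onto tRNAs and the factors that start and extend protein synthesis. They were taken by name from the table of all genes, as the aminoacyl-tRNA synthetase genes whose names end in ars-1 or ars-2 and the genes named *eif*, *eef*, *ife* or *ifg*, where 10 or more counts were present in at least 3 libraries. Of 46756 genes listed, 17400 met this count minimum, and all 68 genes of that name met it: 20 ars-1 genes, 12 ars-2 genes, 30 initiation factor genes and 6 elongation factor genes. Whole young adult *Caenorhabditis elegans* were compared between 4 strains with a loss-of-function allele and N2, the wild type. The mutants were *nrx-1* (*ok1649*) and *nrx-1* (*tm1961*), which affect neurexin, and *nlg-1* (*ok259*) and *nlg-1* (*tm474*), which affect neuroligin, a pair of adhesion proteins that meet across synapses. Each strain gave 3 libraries of total RNA from about 20000 worms apiece, kept at 20 °C on OP50 bacteria, so that the series holds 15 libraries. All 4 mutants were set against the same 3 N2 libraries. For every mutant except *nrx-1* (*ok1649*), the paper reports a differing genetic background and no backcross ahead of sequencing. It names a possible modifying effect of background. How far a difference from N2 belongs to the allele or to the background was not tested. RNA came from whole animals, where fewer cells of a type and less RNA per cell cannot be told apart.

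An aminoacyl-tRNA synthetase joins one amino acid to the tRNAs that decode it, and animals keep separate enzymes for the cytosol and for the ribosomes of mitochondria, most of them encoded in the nucleus by separate genes. In *C. elegans* gene names the ending ars-1 usually marks the cytosolic enzyme and ars-2 the mitochondrial one. Translation then begins when the cap-binding protein eIF4E and its scaffold eIF4G recruit an mRNA, eIF2 brings the initiator tRNA, eIF2B recharges eIF2 with GTP, and eIF3 holds the small ribosomal subunit ready. During elongation eEF1A delivers each charged tRNA, the eEF1B complex recharges eEF1A, and eEF2 moves the ribosome along. Elongation factor transcripts are abundant in growing tissue, and the germline of an adult hermaphrodite makes much of the mRNA of the animal.

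Library totals lay between 10152578 and 26211067 counts. *nrx-1* had 6.58 to 8.81 CPM in *nrx-1* (*ok1649*) and 4.02 to 7.90 CPM in *nrx-1* (*tm1961*), against 9.71 to 11.7 CPM in N2, and *nlg-1* had 8.14 to 10.2 CPM in *nlg-1* (*ok259*) and 1.34 to 6.75 CPM in *nlg-1* (*tm474*), against 11.1 to 18.0 CPM in N2. Each targeted gene was thus below N2 in every library of its mutants, but the check of the labels is weak, since *nlg-1* also reached as low as 2.79 CPM in *nrx-1* (*ok1649*) and 2.92 CPM in *nrx-1* (*tm1961*). Libraries of *nrx-1* (*ok1649*), *nlg-1* (*ok259*) and *nlg-1* (*tm474*) lay far apart within their strain. Noncoding RNA took 15.6 to 26.4% of counts in *nrx-1* (*tm1961*), with 3.51%, 21.0% and 25.3% for *nrx-1* (*ok1649*), 2.99%, 30.3% and 30.3% for *nlg-1* (*ok259*) and 7.35%, 20.3% and 4.99% for *nlg-1* (*tm474*), against 4.03 to 5.50% in N2 (replicates 1, 2 and 3 in this order wherever 3 values follow each other). The summed level of the 6 yolk genes was 120169, 1164 and 1701 CPM in *nrx-1* (*ok1649*), 879.7, 5681 and 4614 CPM in *nrx-1* (*tm1961*), 164203, 355.9 and 958 CPM in *nlg-1* (*ok259*) and 147485, 6792 and 8261 CPM in *nlg-1* (*tm474*), against 8829.9, 19961.5 and 19578 CPM in N2. Replicate 1 of *nrx-1* (*ok1649*), *nlg-1* (*ok259*) and *nlg-1* (*tm474*) thus stood above N2 in yolk RNA, and 9 of the 12 mutant libraries, all 3 of *nrx-1* (*tm1961*) among them, were below the lowest N2 library. Results of those strains are therefore also given without replicate 1.

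Elongation factor genes were the most abundant class per length of transcript and mitochondrial synthetase genes the least. Levels of CPM, counts scaled to library size, were divided by the kilobases of exon of a gene (CPM per kb), and on that scale the median elongation factor gene stood at 492 in *nrx-1* (*tm1961*), against 1112 in N2. The median initiation factor gene stood at 42.1 CPM per kb in *nrx-1* (*tm1961*), against 94.9 in N2. The median ars-1 gene stood at 35.6 in *nrx-1* (*tm1961*), against 57.3 in N2, and the median ars-2 gene at 17.5 in *nrx-1* (*tm1961*), against 14.6 in N2. The highest gene in N2 was *eef-1A.1*, which encodes eEF1A, with a mean of 5845 CPM per kb, and *aars-1* was the lowest at 4.60 CPM per kb. The order of the 4 classes was alike in *nrx-1* (*tm1961*) and N2.

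The ars-1 and ars-2 endings held up as a guide to level for most amino acids, with clear exceptions. For 12 amino acids both endings were present, and in 11 of these pairs the ars-1 gene was the higher per kb in every N2 library, with a median ratio of 5.17 over the 12 pairs. *aars-1* and *aars-2*, for alanyl-tRNA synthetase, ran the other way: *aars-1* reached only 0.0483 to 0.128 of the *aars-2* level per kb in N2. In this pair the ars-2 gene is known as the cytosolic enzyme. *vars-1*, known as the mitochondrial valyl enzyme, also lay low, at 27.2, 31.5 and 51.7 CPM in N2. *cars-2* is listed as a pseudogene in RefSeq. For 8 amino acids only an ars-1 gene was among the 68. The labels cytosolic and mitochondrial are used below as the endings give them, and differences between the classes were also computed with *aars-2* moved to the cytosolic class, *aars-1* and *vars-1* moved to the mitochondrial class and *cars-2* left out.

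**Figure D1:**
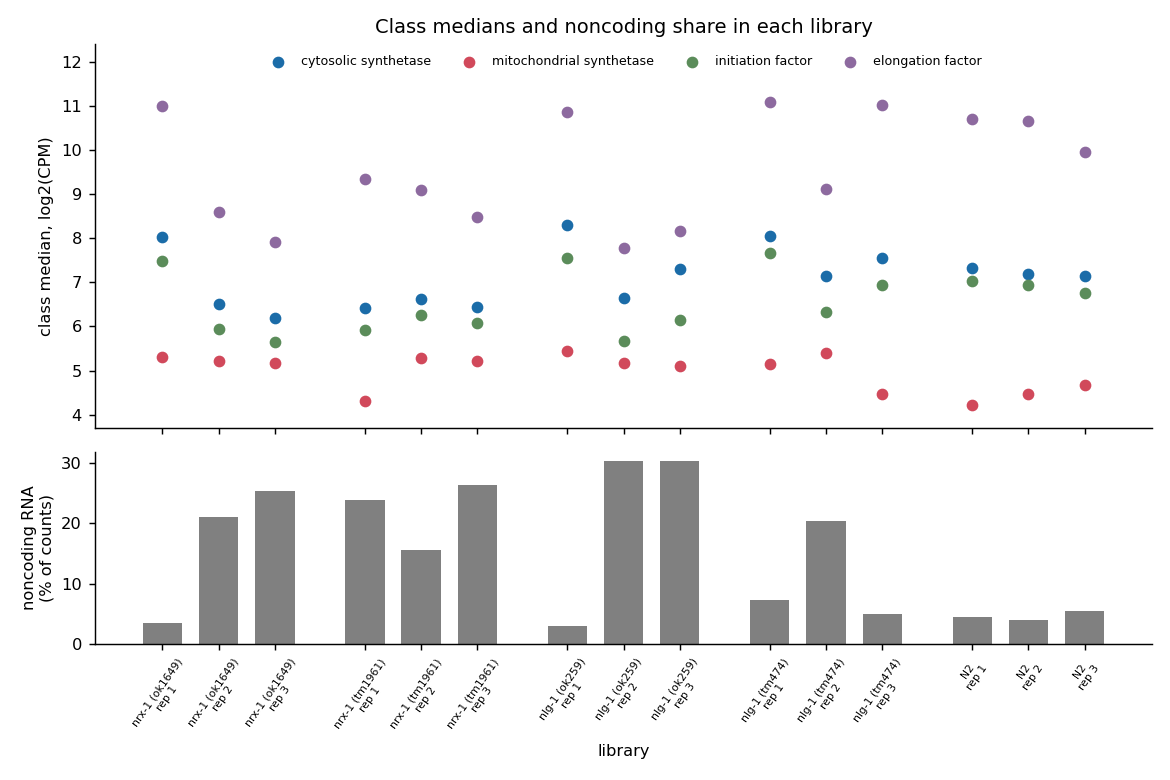
Class medians of log2(CPM) over the 20 ars-1, 12 ars-2, 30 initiation factor and 6 elongation factor genes in each of the 15 libraries (upper panel), above the percentage of counts from noncoding RNA in the same library (lower panel). The elongation factor median was 9.34, 9.08 and 8.48 in the 3 *nrx-1* (*tm1961*) libraries, against 9.94 to 10.70 in N2, and the ars-2 median was 4.31, 5.28 and 5.21, against 4.23 to 4.67.

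Elongation factor, initiation factor and ars-1 medians lay far apart between libraries within *nrx-1* (*ok1649*), *nlg-1* (*ok259*) and *nlg-1* (*tm474*). In *nrx-1* (*tm1961*) they lay closer together and did not overlap N2. The ars-1 median there was 6.41 to 6.62 as log2(CPM), against 7.14 to 7.33 in N2. The initiation factor median there was 5.92 to 6.25, against 6.76 to 7.02 in N2. The ars-2 median, as log2(CPM), was 5.31, 5.22 and 5.17 in *nrx-1* (*ok1649*) and 5.45, 5.16 and 5.10 in *nlg-1* (*ok259*). All of these were above the 4.23 to 4.67 of N2. In *nlg-1* (*tm474*) the ars-2 median was 5.15, 5.39 and 4.47, and it overlapped N2 there and in *nrx-1* (*tm1961*). In the 8 mutant libraries with 15.6% or more noncoding RNA, the 6 elongation factor genes together took 0.240% to 0.860% of all counts, against 1.55% to 2.17% in the 3 N2 libraries. In the other 4 mutant libraries, replicate 1 of *nrx-1* (*ok1649*), *nlg-1* (*ok259*) and *nlg-1* (*tm474*) and replicate 3 of *nlg-1* (*tm474*), they took 2.15% to 2.35%. The median ars-2 gene minus the median ars-1 gene, on the log2(CPM) scale, was -2.10, -1.34 and -1.24 in *nrx-1* (*tm1961*), with -2.71, -1.28 and -1.02 for *nrx-1* (*ok1649*), -2.85, -1.49 and -2.21 for *nlg-1* (*ok259*) and -2.89, -1.75 and -3.08 for *nlg-1* (*tm474*), against -3.10, -2.72 and -2.47 in N2. All 3 *nrx-1* (*tm1961*) libraries lay above all 3 N2 libraries in this difference, and the other strains overlapped N2. Whether the share of noncoding RNA has a part in this was not tested beyond the fit with that share as a covariate, given below.

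No member passed an adjusted p of 0.05 against N2 in any strain in edgeR's quasi-likelihood test without a block, where the test called 4 of 15957 genes in *nrx-1* (*ok1649*) (0.0251%) and 0 genes in the other 3 strains (0%). At an unadjusted p below 0.05, *nrx-1* (*tm1961*) had 7 members higher and 27 lower, or 10.3% and 39.7% of the 68, against 18.6% and 15.6% of all 16268 genes tested there. Its share of lower members was thus above the background and its share of higher members below it. *nrx-1* (*ok1649*) had 5 higher and 0 lower, against 13% and 5.11% of all genes. *nlg-1* (*ok259*) had 3 higher and 3 lower, against 6.44% and 7.76%, and *nlg-1* (*tm474*) had 0 of either, against 5.2% and 3.21%. In *nrx-1* (*tm1961*), 40 members had all 3 libraries below all 3 N2 libraries and 6 had all 3 above, where 20.2% and 19.1% of all genes tested did so. The same counts were 3 below and 16 above in *nrx-1* (*ok1649*) (background 8.07% and 15.1%), 4 below and 9 above in *nlg-1* (*ok259*) (12.3% and 9.32%), and 3 below and 10 above in *nlg-1* (*tm474*) (8.13% and 6.56%).

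Calls appeared once replicate numbers were used or a library was left out. Replicates 1 and 3 of *nrx-1* (*tm1961*) deviated together with the N2 libraries of the same number (correlations over genes of 0.729 and 0.647), and replicate 2 little (0.176). No label states a shared batch, so the block was chosen from these counts alone. With replicate number as a block 5 members were called higher and 25 lower in *nrx-1* (*tm1961*), 7.35% and 36.8% of the 68, against 17% and 17.5% of all genes. The 25 that fell were 7 ars-1 genes, *aars-2*, 12 initiation factor genes and 5 elongation factor genes, and the 5 that rose were *dars-2*, *lars-2* and *rars-2* with *eif-2beta* and *ife-4*. DESeq2 without a block called 22 members there (18.2% of all genes with an adjusted p), 1 in *nlg-1* (*ok259*) (3.65%), and 0 in *nrx-1* (*ok1649*) (4.13%) and *nlg-1* (*tm474*) (0.312%). Without its own replicate 1, *nrx-1* (*tm1961*) had 11 members called higher and 23 lower in edgeR (background 19.7% and 18.9%). The fit of *nrx-1* (*ok1649*) without its replicate 1 called 10 higher and 37 lower (22.7% and 26.6%), and that of *nlg-1* (*ok259*) called 7 higher and 28 lower (22.3% and 26.1%), while *nlg-1* (*tm474*) had 0 calls among members without any one library. Under the block, DESeq2 and the fit without replicate 1 alike, 20 members were called lower and 1 higher, *eif-2beta*, in *nrx-1* (*tm1961*). Its replicate 1 was not among those with high yolk RNA. Leaving out its replicate 2, its replicate 3 or any single N2 library instead called 0 genes in that comparison.

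**Figure D2:**
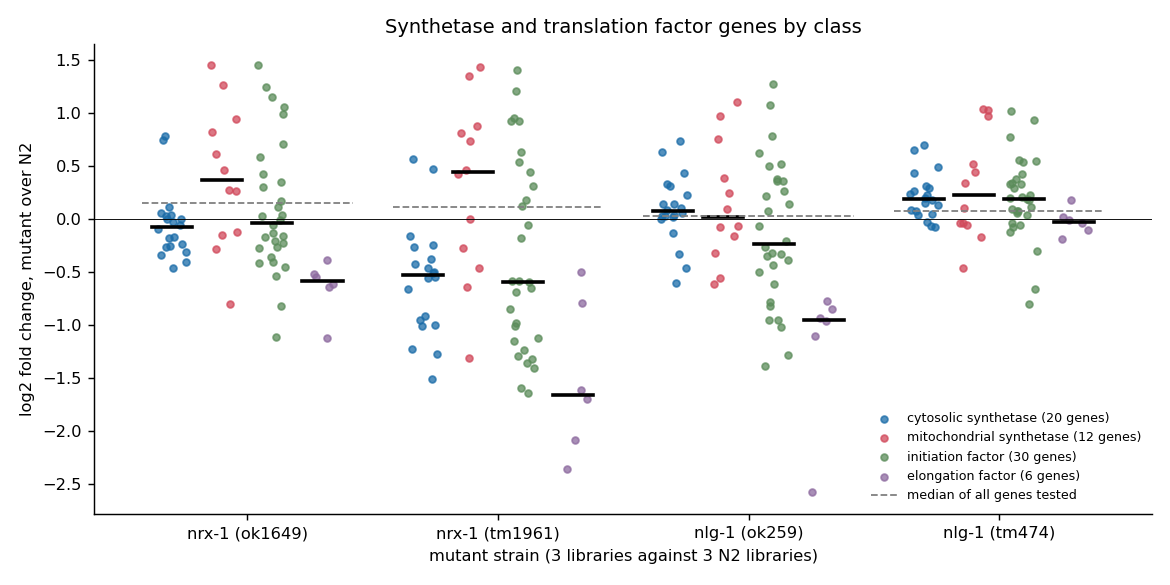
Log2 fold change over N2 (3 libraries against 3) of each of the 68 genes, one point per gene, by class and mutant strain, with the class median as a black bar and the median of all genes tested as a dashed line. In *nrx-1* (*tm1961*) the class medians were -1.66 for elongation factors, -0.59 for initiation factors, -0.53 for ars-1 genes and 0.45 for ars-2 genes.

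Elongation factor genes were the lowest class in *nrx-1* (*tm1961*). All 6 had a fold change below 0, with a median of -1.66 (log2), against 0.11 over all genes tested. Under the block 5 of the 6 fell, where 17.5% of all genes were called lower. *eef-1A.1* (chromosome III, 6970026 to 6971712, WBcel235), the main eEF1A gene by count here, had 2729.8, 2246 and 1226 CPM in *nrx-1* (*tm1961*), against 10012, 11034 and 5905 CPM in N2. Every mutant library lay under every N2 library, with a log2 fold change of -2.08 ± 0.43 (SE; adjusted p = 0.0745, and 0.00848 with the block). Its near-identical paralog *eef-1A.2* had 332, 219 and 109 CPM in *nrx-1* (*tm1961*), against 1623, 1472 and 382 CPM in N2, a log2 fold change of -2.36 ± 0.65 (adjusted p = 0.0762, and 0.00905 with the block). Reads that fit both copies may have been lost or moved between them, so the split between these genes is uncertain, but their levels in *nrx-1* (*tm1961*) were below N2 for each.

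*eef-2*, which encodes the translocation factor, had 2396, 1734 and 1244 CPM in *nrx-1* (*tm1961*), against 6831, 6662 and 4462 CPM in N2 (-1.70 ± 0.37, adjusted p = 0.0745, and 0.00905 with the block). The eEF1B gene *eef-1G*, for the gamma subunit, had 699, 526 and 283 CPM in *nrx-1* (*tm1961*), against 1699.8, 1787 and 1261 CPM in N2 (-1.62 ± 0.41, adjusted p = 0.0745, and 0.00905 with the block). Both genes were lower in every mutant library than in any N2 library. The exchange subunits of eEF1B differed less: *eef-1B.1* had 603, 559 and 449.7 CPM in *nrx-1* (*tm1961*), against 1026, 1077 and 768 CPM in N2 (-0.80 ± 0.30, adjusted p = 0.119, and 0.0474 with the block), and *eef-1B.2* had 596, 480.0 and 267 CPM in *nrx-1* (*tm1961*), against 675, 723 and 546 CPM in N2 (-0.50 ± 0.37, adjusted p = 0.361, and 0.154 with the block). *eef-1B.2* was the elongation factor gene whose libraries overlapped N2.

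In the other strains the same genes split by library. *eef-1A.1* had 16430.4, 1648 and 645 CPM in *nrx-1* (*ok1649*), 17616, 666 and 1043 CPM in *nlg-1* (*ok259*) and 20912, 2661 and 11391 CPM in *nlg-1* (*tm474*), against 10012, 11034 and 5905 CPM in N2. Replicate 1 of each strain was above every N2 library and replicate 2 of each was below. With all 3 libraries the log2 fold change of *eef-1A.1* was -0.52 ± 1.22 in *nrx-1* (*ok1649*) (adjusted p = 0.893) and -0.85 ± 1.23 in *nlg-1* (*ok259*) (adjusted p = 0.784), and the class medians were -0.58 and -0.95. Without replicate 1, *eef-1A.1* was lower than N2 by a log2 fold change of -3.16 in *nrx-1* (*ok1649*) (adjusted p = 0.00680) and -3.54 in *nlg-1* (*ok259*) (adjusted p = 0.00197), and the class medians there were -2.70 and -2.66. Replicate 1 was left out after its values were seen. The libraries kept had 21.0% and 25.3% noncoding RNA in *nrx-1* (*ok1649*) and 30.3% each in *nlg-1* (*ok259*), against 4.03 to 5.50% in N2. There 9738 of 16918 genes in *nrx-1* (*ok1649*) and 9512 of 16748 in *nlg-1* (*ok259*) had an unadjusted edgeR p below 0.05. How far these values belong to the strain was not tested. *eef-1A.2* in *nlg-1* (*ok259*) lay at 443, 93.0 and 176 CPM, against 1623, 1472 and 382 CPM in N2 (-2.58 ± 0.82, adjusted p = 0.286). The high replicate 1 of *nlg-1* (*ok259*) overlapped N2 replicate 3 for this gene in these values, scaled over all 15 libraries. In *nlg-1* (*tm474*), where only replicate 2 was low, the elongation class median was -0.02.

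**Figure D3:**
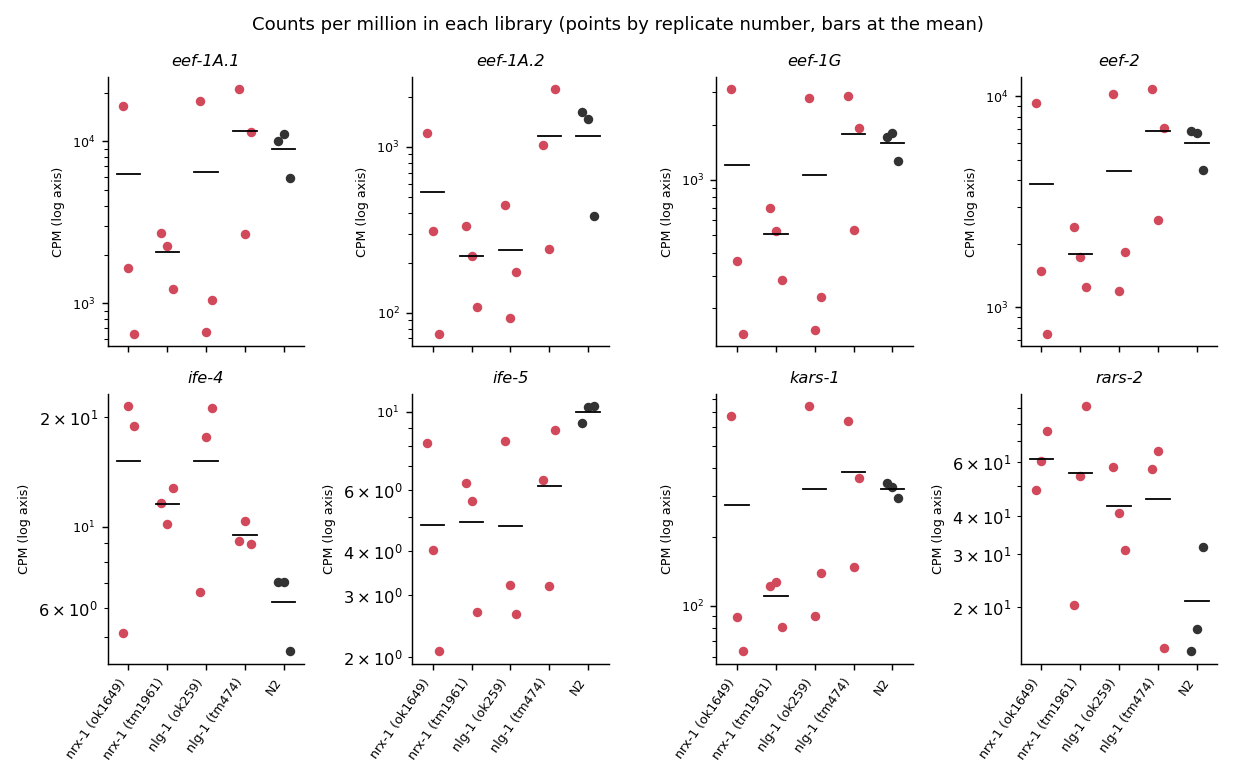
CPM on a log axis in each library for 8 genes, with 3 points per strain in order of replicate number and a bar at the mean, mutants in red and N2 in black. *eef-1A.1*, *eef-1G*, *eef-2* and *kars-1* were low in all 3 *nrx-1* (*tm1961*) libraries and in replicates 2 and 3 of *nrx-1* (*ok1649*) and *nlg-1* (*ok259*), whereas *ife-4* and *rars-2* had means above N2 in every mutant strain.

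The cap-binding proteins did not move as a group. *C. elegans* has 5 eIF4E genes, and *ife-3*, the essential form that binds the standard cap, had 63.0, 106 and 67.8 CPM in *nrx-1* (*tm1961*), against 162, 194 and 173 CPM in N2 (-1.13 ± 0.31, adjusted p = 0.0765, and 0.0187 with the block). *ife-5*, a germline form that also takes the trimethylated cap of trans-spliced mRNAs, had 6.27, 5.56 and 2.68 CPM in *nrx-1* (*tm1961*), against 9.29, 10.3 and 10.4 CPM in N2 (-1.01 ± 0.39, adjusted p = 0.120, and 0.0424 with the block). Both lay under N2 in all 3 libraries. *ife-4*, the divergent eIF4E relative known from neurons and muscle, had 11.6, 10.2 and 12.8 CPM in *nrx-1* (*tm1961*), against 7.04, 7.03 and 4.55 CPM in N2 (0.93 ± 0.32, adjusted p = 0.101, and 0.0491 with the block), with every mutant library above N2. It is a rare transcript, and the change rests on low levels.

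*ife-1*, a germline form needed for sperm, had 219, 154 and 92.5 CPM in *nrx-1* (*tm1961*), against 236, 247 and 235 CPM in N2 (-0.59 ± 0.37, adjusted p = 0.280). Of its exon sequence, 24.7% lies on the same strand as *dro-1*, so that its reads may be shared with that gene. *ife-2*, the form most used in the soma, had 23.3, 25.4 and 21.0 CPM in *nrx-1* (*tm1961*), against 43.0, 43.4 and 20.5 CPM in N2 (-0.58 ± 0.37, adjusted p = 0.282), and overlapped N2. *ifg-1*, which encodes eIF4G, the scaffold that all these proteins bind in canonical initiation, had 144, 145 and 105 CPM in *nrx-1* (*tm1961*), against 396, 393 and 282 CPM in N2 (-1.41 ± 0.31, adjusted p = 0.0745, and 0.0108 with the block). Its 3 *nrx-1* (*tm1961*) libraries were well under N2.

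*ife-1* and *ife-5* were the lower initiation factor genes with the smallest p in *nrx-1* (*ok1649*), *nlg-1* (*ok259*) and *nlg-1* (*tm474*). *ife-5* had 8.17, 4.05 and 2.08 CPM in *nrx-1* (*ok1649*), 8.28, 3.20 and 2.66 CPM in *nlg-1* (*ok259*) and 6.40, 3.18 and 8.88 CPM in *nlg-1* (*tm474*), each under the 9.29, 10.3 and 10.4 CPM of N2. Its log2 fold changes were -1.12 ± 0.57, -1.39 ± 0.49 and -0.80 ± 0.50 in these strains (adjusted p = 0.336, 0.312 and 0.681). For *ife-1* they were -0.82 ± 0.61, -1.28 ± 0.52 and -0.66 ± 0.43 (adjusted p = 0.516, 0.341 and 0.700). *ife-4* pointed the other way in level, with 5.10, 21.3 and 18.8 CPM in *nrx-1* (*ok1649*), 6.61, 17.6 and 21.1 CPM in *nlg-1* (*ok259*) and 9.12, 10.4 and 8.96 CPM in *nlg-1* (*tm474*), but replicate 1 of *nrx-1* (*ok1649*) and *nlg-1* (*ok259*) lay within the N2 range. Per kb, the ratio of *ife-4* to *ife-5* was 1.83 to 4.77 in *nrx-1* (*tm1961*), 0.625 to 9.06 in *nrx-1* (*ok1649*), 0.798 to 7.94 in *nlg-1* (*ok259*) and 1.01 to 3.25 in *nlg-1* (*tm474*), against 0.440 to 0.759 in N2. In the 3 strains other than *nrx-1* (*ok1649*) every library had a ratio above all of N2. The margin was narrow in replicate 1 of *nlg-1* (*ok259*), with 91 counts of *ife-4* and 114 of *ife-5*. Both genes are rare, so counting error weighs on these ratios.

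Subunits of one initiation complex differed in fold change in *nrx-1* (*tm1961*), a split that was much smaller with the noncoding share as a covariate. The eIF2 trimer is built from one copy of each subunit, and in *nrx-1* (*tm1961*) *eif-2beta* had 186, 302 and 566 CPM in *nrx-1* (*tm1961*), against 134, 143 and 132 CPM in N2 (1.41 ± 0.44, adjusted p = 0.0870, and 0.0288 with the block). *eif-2gamma*, the GTP-binding subunit, had 87.5, 90.9 and 66.5 CPM in *nrx-1* (*tm1961*), against 236, 258 and 148 CPM in N2 (-1.35 ± 0.33, adjusted p = 0.0745, and 0.0124 with the block). With the block *eif-2beta* rose and *eif-2gamma* fell, with no overlap of libraries for either. *eif-2alpha*, the subunit that stress kinases phosphorylate, had 228, 339 and 355 CPM in *nrx-1* (*tm1961*), against 304, 309 and 258 CPM in N2 (0.12 ± 0.31, adjusted p = 0.794). With the covariate, in a fit over all 15 libraries, *eif-2beta* was at 0.49 and *eif-2gamma* at 0.55. The spread over the 3 subunits was then 0.17 log2 units, against 2.76 in the fit of 6 libraries without it. The fits with and without the covariate thus also differ in their libraries, here and below. Per kb, the ratio of *eif-2beta* to *eif-2gamma* was 3.24 to 13.0 in *nrx-1* (*tm1961*), against 0.847 to 1.36 in N2.

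*eif-2beta* was also among the 3 higher members with the smallest p in *nlg-1* (*ok259*) and *nlg-1* (*tm474*), and it was the only member called higher in *nrx-1* (*tm1961*) by DESeq2. It had 191, 488 and 537 CPM in *nrx-1* (*ok1649*), 255, 381 and 524 CPM in *nlg-1* (*ok259*) and 263, 434 and 159 CPM in *nlg-1* (*tm474*), against 134, 143 and 132 CPM in N2. Every one of these mutant libraries was above every N2 library. The log2 fold changes were 1.45 ± 0.60, 1.28 ± 0.49 and 1.02 ± 0.48 (adjusted p = 0.255, 0.329 and 0.603). The ratio to *eif-2gamma* per kb was 0.691 to 20.0 for *nrx-1* (*ok1649*), 0.872 to 9.66 for *nlg-1* (*ok259*) and 0.855 to 5.96 for *nlg-1* (*tm474*), against 0.847 to 1.36 in N2. Replicate 1 of each strain was in or below the N2 range, and so was replicate 3 of *nlg-1* (*tm474*).

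Of the 11 eIF3 subunit genes matched, 7 were lower and 1 higher at an unadjusted p below 0.05 in *nrx-1* (*tm1961*), with a median log2 fold change of -0.85. These are 63.6% and 9.09% of the 11, where 15.6% and 18.6% of all genes tested were lower and higher. *eif-3.B*, part of the core scaffold, had 102, 81.4 and 53.3 CPM in *nrx-1* (*tm1961*), against 296, 296 and 166 CPM in N2 (-1.64 ± 0.39, adjusted p = 0.0745, and 0.00905 with the block). *eif-3.J*, the loosely held subunit, had 34.2, 42.3 and 17.4 CPM in *nrx-1* (*tm1961*), against 107, 124 and 60.0 CPM in N2 (-1.60 ± 0.44, adjusted p = 0.0762, and 0.00935 with the block). *eif-3.F* was the exception among them, with 149, 238 and 325 CPM, against 134, 133 and 118 CPM in N2 (0.93 ± 0.36, adjusted p = 0.120, and 0.0722 with the block), every mutant library above N2. Per kb, *eif-3.F* to *eif-3.B* stood at 3.02 to 12.6 in *nrx-1* (*tm1961*), against 0.924 to 1.47 in N2. With the noncoding share as a covariate *eif-3.F* was at 0.39, *eif-3.B* at 0.63 and *eif-3.J* at 0.99 on the log2 fold change scale. *eif-3.K* and *eif-3.L*, a pair of peripheral subunits, had log2 fold changes of -0.06 ± 0.34 and -0.17 ± 0.29. *eif-3.F* had the largest log2 fold change of the 11 in all 4 strains, at 0.56 in *nlg-1* (*tm474*), 0.52 in *nlg-1* (*ok259*) and 1.06 in *nrx-1* (*ok1649*), where no eIF3 gene reached an unadjusted p below 0.05.

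**Figure D4:**
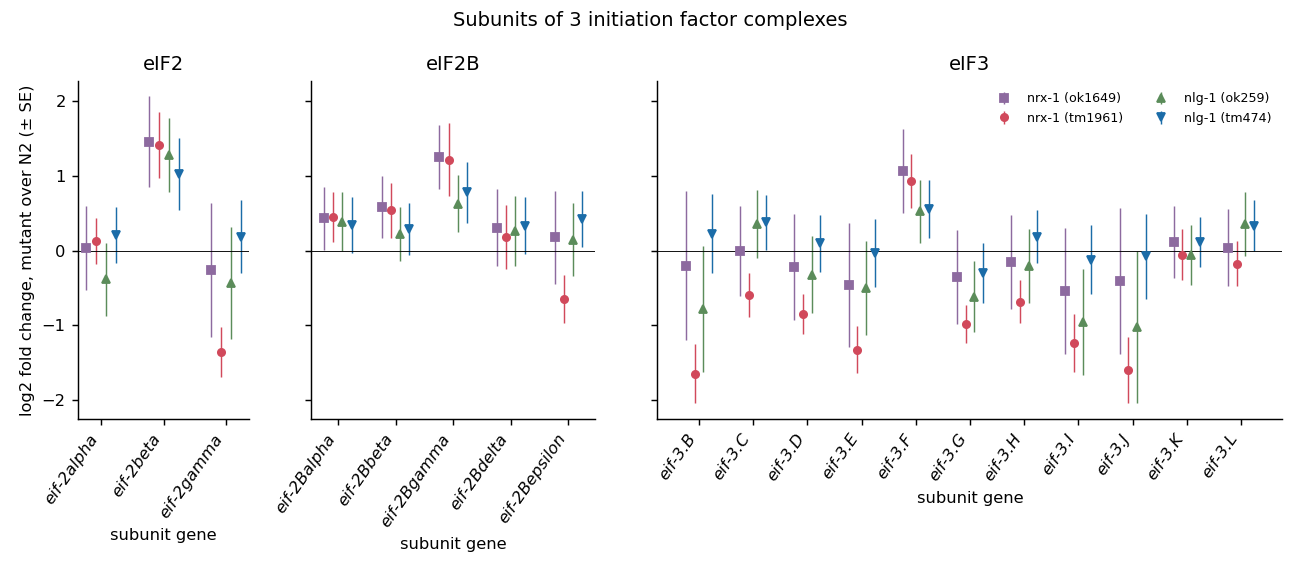
Log2 fold change over N2 with its standard error for each subunit gene of eIF2 (3 genes), eIF2B (5 genes) and eIF3 (11 genes), in the 4 mutant strains. In *nrx-1* (*tm1961*) the subunits spread over 2.76 log2 units within eIF2, 1.86 within eIF2B and 2.57 within eIF3, with *eif-2beta*, *eif-2Bgamma* and *eif-3.F* the highest of their complexes in each strain.

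The 5 subunits of eIF2B, the exchange factor of eIF2, spread over 1.86 log2 units in *nrx-1* (*tm1961*), and over 0.81 with the covariate. *eif-2Bgamma* had 18.6, 53.9 and 68.0 CPM in *nrx-1* (*tm1961*), against 18.2, 18.9 and 25.4 CPM in N2 (1.21 ± 0.49, adjusted p = 0.131, and 0.0541 with the block), while its partner in catalysis, *eif-2Bepsilon*, had 13.6, 24.4 and 20.7 CPM in *nrx-1* (*tm1961*), against 29.3, 33.2 and 32.2 CPM in N2 (-0.65 ± 0.32, adjusted p = 0.186, and 0.104 with the block). Replicate 1 of *nrx-1* (*tm1961*) lay inside the N2 range for *eif-2Bgamma* and the other replicates far above it, and neither gene passed the test. *eif-2Bgamma* in *nrx-1* (*ok1649*) had 44.4, 49.1 and 65.0 CPM, all above N2 (1.25 ± 0.43, adjusted p = 0.220). The regulatory subunits *eif-2Balpha*, *eif-2Bbeta* and *eif-2Bdelta* had log2 fold changes of 0.44, 0.54 and 0.18 in *nrx-1* (*tm1961*).

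Among the remaining initiation factors, *eif-2A* and *eif-6* fell in *nrx-1* (*tm1961*) with the block and *eif-2D* did not pass the test. *eif-2A*, an alternative carrier of initiator tRNA, had 77.7, 96.0 and 72.1 CPM in *nrx-1* (*tm1961*), against 188, 176 and 195 CPM in N2 (-1.15 ± 0.27, adjusted p = 0.0745, and 0.0189 with the block). *eif-6*, which keeps ribosomal subunits apart, had 30.5, 53.5 and 39.7 CPM in *nrx-1* (*tm1961*), against 107, 122 and 81.6 CPM in N2 (-1.29 ± 0.33, adjusted p = 0.0752, and 0.0153 with the block). With the noncoding share as a covariate *eif-2A* was at 0.59 and *eif-6* at 0.70. *eif-2D*, a factor that can deliver tRNA without GTP, had 14.9, 40.9 and 56.0 CPM in *nrx-1* (*tm1961*), against 14.8, 19.1 and 25.6 CPM in N2 (0.95 ± 0.50, adjusted p = 0.212). Its level in *nlg-1* (*tm474*) was 46.9, 53.0 and 20.6 CPM, with replicate 3 inside the N2 range (0.94 ± 0.47, adjusted p = 0.617).

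Cytosolic synthetase genes were lower in *nrx-1* (*tm1961*) for most amino acids. Of 20 ars-1 genes, 18 had a fold change below 0, with a median of -0.53. All 3 libraries were under N2 for 16 of them, where 20.2% of all genes tested did so. With the block 7 of the 20 fell, where 17.5% of all genes were called lower: *cars-1*, *ears-1*, *kars-1*, *mars-1*, *qars-1*, *tars-1* and *wars-1*. *kars-1*, the lysyl enzyme (chromosome II, 7070183 to 7072415, WBcel235), had 123, 127 and 80.7 CPM in *nrx-1* (*tm1961*), against 344, 330.4 and 294 CPM in N2, and the smallest p of all members (-1.51 ± 0.31, adjusted p = 0.0745, and 0.00980 with the block). *tars-1*, the threonyl enzyme, had 93.5, 86.4 and 91.5 CPM in *nrx-1* (*tm1961*), against 244, 246 and 162 CPM in N2 (-1.23 ± 0.30, adjusted p = 0.0745, and 0.0184 with the block). With the covariate *kars-1* was at 0.48 and *tars-1* at 0.44. Other ars-1 genes did not pass the test, among them the leucyl enzyme gene *lars-1* with 107, 153 and 151 CPM, against 182, 192 and 249 CPM in N2 (-0.56 ± 0.30, adjusted p = 0.220), and the seryl enzyme gene *sars-1* with 77.9, 115 and 118 CPM, against 142, 135 and 138 CPM in N2 (-0.38 ± 0.29, adjusted p = 0.365).

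*pars-1* and *vars-1* were the ars-1 genes with a fold change above 0 in *nrx-1* (*tm1961*). *pars-1*, the prolyl enzyme gene, had 123, 224 and 230.2 CPM in *nrx-1* (*tm1961*), against 139, 129.6 and 131 CPM in N2 (0.57 ± 0.33, adjusted p = 0.251), with replicate 1 under N2 and the other replicates above. In *nrx-1* (*ok1649*) *pars-1* had 203, 278 and 252 CPM, in *nlg-1* (*ok259*) 259, 224 and 254 CPM and in *nlg-1* (*tm474*) 263, 237 and 190.1 CPM, and each of these libraries was above every N2 library. *kars-1* in the same strains had 672, 89.3 and 63.4 CPM, 741, 90.6 and 139 CPM and 639, 148 and 361 CPM, with replicate 1 above N2 and replicate 2 below it. Over the 20 ars-1 genes the median log2 fold change was 0.19 in *nlg-1* (*tm474*), 0.08 in *nlg-1* (*ok259*) and -0.07 in *nrx-1* (*ok1649*), beside 0.08, 0.03 and 0.16 over all genes tested. Without replicate 1 it was -0.89 in *nrx-1* (*ok1649*), where 12 of the 20 (60%) were called lower, beside 26.6% of all genes, and -0.20 in *nlg-1* (*ok259*), where 3 (15%) were, beside 26.1% of all genes.

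Mitochondrial synthetase genes had a median log2 fold change of 0.45 in *nrx-1* (*tm1961*), against 0.11 over all genes, and ranged from -1.31 to 1.44. *rars-2*, the arginyl enzyme gene, had 20.4, 54 and 91.1 CPM in *nrx-1* (*tm1961*), against 14.4, 17.0 and 31.5 CPM in N2 (1.44 ± 0.58, adjusted p = 0.130, and 0.0216 with the block). *dars-2*, the aspartyl enzyme gene, had 14.5, 40.6 and 61.2 CPM in *nrx-1* (*tm1961*), against 13.6, 13.6 and 19.8 CPM in N2 (1.35 ± 0.52, adjusted p = 0.122, and 0.0426 with the block). For both, replicate 1 of *nrx-1* (*tm1961*) overlapped N2 and the other replicates were above it. *lars-2* had 20.8, 37.2 and 40.1 CPM in *nrx-1* (*tm1961*), against 12.2, 17.1 and 25.8 CPM in N2 (0.88 ± 0.41, adjusted p = 0.169, and 0.0464 with the block). *sars-2* had 56.1, 73.3 and 103 CPM, all above the 46.9, 45.4 and 51.4 CPM of N2, but did not pass the test with or without the block (0.74 ± 0.31, adjusted p = 0.146 and 0.101).

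Not every ars-2 gene pointed up. *aars-2*, the alanyl gene that is cytosolic by its known product, had 106, 73.9 and 65.8 CPM in *nrx-1* (*tm1961*), against 248, 235 and 142 CPM in N2, and fell with the block (-1.31 ± 0.36, adjusted p = 0.0762, and 0.0140 with the block). Its partner *aars-1* had 7.06, 16.6 and 12.2 CPM in *nrx-1* (*tm1961*), against 11.4, 12.3 and 17.4 CPM in N2 (-0.16 ± 0.39, adjusted p = 0.790). *yars-2*, the tyrosyl gene, had 13.8, 16.2 and 13.7 CPM in *nrx-1* (*tm1961*), against 21.2, 23.6 and 25.2 CPM in N2 (-0.64 ± 0.27, adjusted p = 0.147). *cars-2*, the RefSeq pseudogene, was lowest of the class per kb in N2. In *nrx-1* (*ok1649*) and *nlg-1* (*tm474*), where it was among the 3 lower members with the smallest p, it had 7.88, 4.59 and 3.80 CPM and 8.80, 4.89 and 7.68 CPM, against 9.97, 8.40 and 8.75 CPM in N2 (-0.80 ± 0.47 and -0.46 ± 0.44, adjusted p = 0.399 and 0.835).

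*rars-2*, *dars-2* and *lars-2* were also among the 3 higher members with the smallest p in other strains. *rars-2* had 48.3, 60.4 and 75.5 CPM in *nrx-1* (*ok1649*), all above N2 (1.45 ± 0.49, adjusted p = 0.217). *dars-2* had 27.8, 44.6 and 49.1 CPM in *nrx-1* (*ok1649*) (1.27 ± 0.44, adjusted p = 0.220) and 40.8, 41.5 and 38.2 CPM in *nlg-1* (*ok259*) (1.10 ± 0.36, adjusted p = 0.294), against 13.6, 13.6 and 19.8 CPM in N2. *lars-2* had 47.0, 41.6 and 41.3 CPM in *nlg-1* (*ok259*) (0.98 ± 0.41, adjusted p = 0.344) and 36.1, 47.8 and 28.6 CPM in *nlg-1* (*tm474*) (0.97 ± 0.45, adjusted p = 0.598), against 12.2, 17.1 and 25.8 CPM in N2. All of these mutant libraries were above the N2 libraries, replicate 1 included, although no adjusted p passed. Without replicate 1, *dars-2* was called higher in *nrx-1* (*ok1649*) (adjusted p = 0.00855) and *nlg-1* (*ok259*) (adjusted p = 0.00830).

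**Figure D5:**
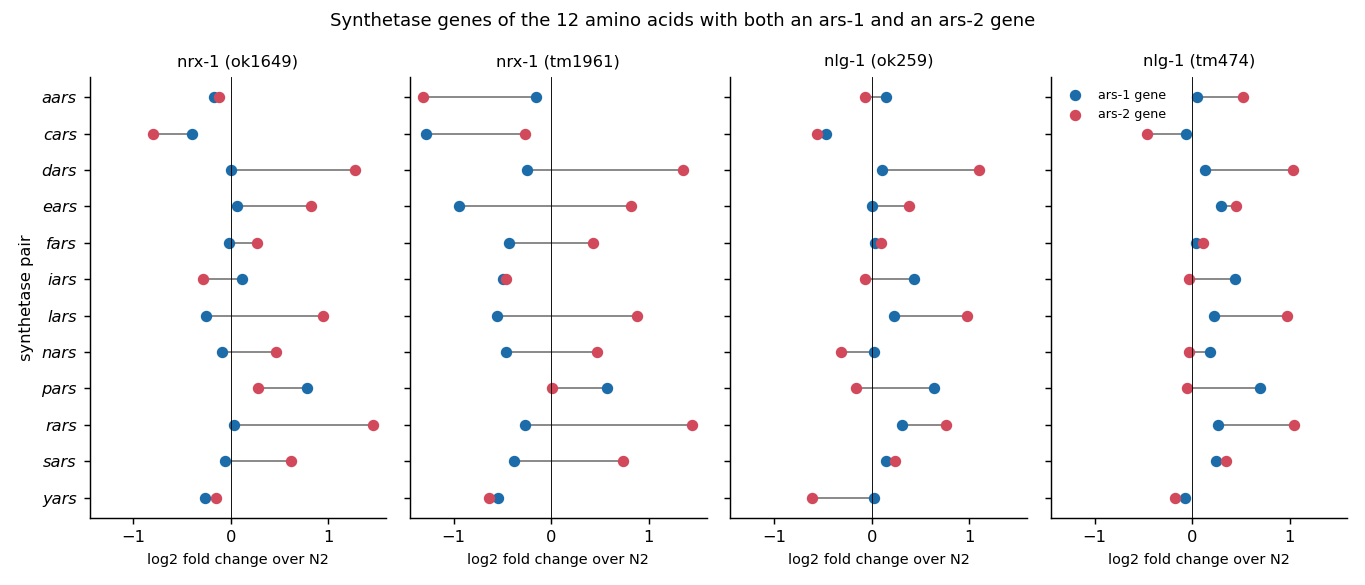
Log2 fold change over N2 of the ars-1 gene (blue) and the ars-2 gene (red) for the 12 amino acids with both, in the 4 mutant strains, with a line joining each pair. The ars-2 gene had the higher fold change in 9 of 12 pairs in both *nrx-1* strains, against 7 in *nlg-1* (*tm474*) and 6 in *nlg-1* (*ok259*).

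Set against each other, the median log2 fold change of ars-2 genes minus that of ars-1 genes was 0.97 in *nrx-1* (*tm1961*) and 0.45 in *nrx-1* (*ok1649*). For *nlg-1* (*tm474*) it was 0.04 and for *nlg-1* (*ok259*) -0.06. These are descriptions with no test. With *aars-2*, *aars-1* and *vars-1* placed by their known products and *cars-2* left out, the difference was 1.03 in *nrx-1* (*tm1961*) and 0.64 in *nrx-1* (*ok1649*), with 0.03 for *nlg-1* (*tm474*) and 0.15 for *nlg-1* (*ok259*). Within pairs, the ars-2 gene had the higher log2 fold change in 9 of 12 amino acids in *nrx-1* (*tm1961*), with a median difference of 0.97 and a range of -1.15 to 1.76. The pairs that ran the other way there were *aars*, *pars* and *yars*. In the other strains 9, 6 and 7 of 12 pairs had the higher ars-2 gene in *nrx-1* (*ok1649*), *nlg-1* (*ok259*) and *nlg-1* (*tm474*). When each library was left out in turn the difference in *nrx-1* (*ok1649*) was 0.21 to 1.06, highest without its replicate 1. With the noncoding share as a covariate it was 0.42 in *nrx-1* (*tm1961*) and 0.23 in *nrx-1* (*ok1649*), and below 0 in both *nlg-1* strains (-0.19 for *tm474*, -0.26 for *ok259*).

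Other measures moved with these results in *nrx-1* (*tm1961*). Beside the noncoding share, the summed level of the 12 germline genes was 578 to 811 CPM, against 1519.9 to 1773 CPM in N2, and that of the 11 oocyte genes was 344 to 1564 CPM, against 2105 to 3647 CPM in N2. The 159 collagen genes summed to 18352 to 29828 CPM, against 43540.2 to 66872 CPM in N2, the 6 muscle genes to 1479 to 6879 CPM, against 5723 to 14092 CPM in N2, and the 35 major sperm protein genes to 1607 to 4309.7 CPM, against 3426 to 5866 CPM in N2. The germline, oocyte, collagen and yolk sums of *nrx-1* (*tm1961*) did not overlap N2, and the muscle and sperm sums did. All genes of these lists had counts in some library except 1 collagen gene. In replicates 2 and 3, the libraries left in *nrx-1* (*ok1649*) and *nlg-1* (*ok259*) without replicate 1, the oocyte sum was 357 and 527 CPM in *nrx-1* (*ok1649*) and 152 and 186 CPM in *nlg-1* (*ok259*), and the germline sum 489.7 and 512 CPM in *nrx-1* (*ok1649*) and 619 and 765 CPM in *nlg-1* (*ok259*), all below N2. The part of these lists in the results was not tested. In a fit over all 15 libraries with the noncoding share as a covariate, the class medians in *nrx-1* (*tm1961*) were 0.63 for elongation factors, 0.43 for initiation factors, 0.32 for ars-1 genes and 0.74 for ars-2 genes, so that the first 3 changed sign while the ars-2 genes stayed the higher of the synthetases. Of the 47 members below 0 there without the covariate, 43 were above 0 with it, and 0 members were called in that fit. This turn was not particular to *nrx-1* (*tm1961*). In *nrx-1* (*ok1649*) 36 of the 40 members below 0 also turned above it. The fit likewise turned 29 of 33 such members for the *ok259* allele and 16 of 19 for the *tm474* allele. All 3 *nrx-1* (*tm1961*) libraries had a noncoding share above all N2 libraries, and strain and share cannot be told apart within that comparison.

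Other genes of translation showed where the 68 stand. Of 26 further genes listed for this purpose (release factors, poly(A)-binding proteins, mitochondrial elongation factors, regulators of initiation and subunits with other names), 24 had a row under the listed name and were tested. In *nrx-1* (*tm1961*) 15 of them were lower and 0 higher at an unadjusted p below 0.05, with a median log2 fold change of -1.08, and 15 were called lower with the block. That is 62.5% of the 24 by either rule, beside 15.6% of all genes lower by the first and 17.5% by the second. With the noncoding share as a covariate 20 of the 22 below 0 were above 0. Most such genes turned in the other mutants too (16 of 20 with *ok1649*, 17 of 18 with *ok259*, 11 of 12 with *tm474*). Without the covariate, the lowest in *nrx-1* (*tm1961*) was *pab-1*, a poly(A)-binding protein gene, at -1.91 ± 0.52 (adjusted p = 0.0762, and 0.00905 with the block). *egl-45*, the eIF3 subunit A gene, and *inf-1*, the eIF4A helicase gene, were at -1.51 ± 0.32 and -1.50 ± 0.40 (adjusted p = 0.0745 and 0.0760, and 0.00980 and 0.00990 with the block). *glp-4*, the cytosolic valyl-tRNA synthetase gene, was at -0.51 ± 0.29 (adjusted p = 0.248), on the other side of 0 from *vars-1*. The mitochondrial elongation factor genes *tufm-1* and *gfm-1* were at -1.26 ± 0.29 and -1.29 ± 0.36 (adjusted p = 0.0745 and 0.0762, and 0.0134 and 0.0135 with the block), below 0 where the median ars-2 gene was above it. Of the same group, *tufm-2* was at -0.94 ± 0.35 (adjusted p = 0.115, and 0.0452 with the block). *tsfm-1* was nearer to N2, at -0.23 ± 0.28 (adjusted p = 0.574, and 0.529 with the block). The termination factor gene *erfa-1* was the highest, at 0.67 ± 0.45 (adjusted p = 0.307). In *nlg-1* (*ok259*) 1 of the 24 was lower at an unadjusted p below 0.05, and 0 in *nrx-1* (*ok1649*) and *nlg-1* (*tm474*).

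Across the 5 strains in a single fit of 15 libraries, 0 of the 68 members differed at an adjusted p of 0.05 in edgeR, against 0.0402% of all 17395 genes tested, and 0 reached an unadjusted p below 0.05, against 4.71% of all genes. DESeq2's likelihood ratio test called 0 members and had 1 at an unadjusted p below 0.05. In the edgeR test the smallest adjusted p among members was 0.924, which several of them shared. *eef-1A.2* had the smallest unadjusted p there, at 0.0759. In this fit the mixed libraries of *nrx-1* (*ok1649*), *nlg-1* (*ok259*) and *nlg-1* (*tm474*) enter the estimate of the spread.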

How the data were processed

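Total RNA from 3 samples of each of 5 strains was depleted of rRNA and sequenced from strand-specific libraries. Trimmomatic, STAR and featureCounts were the tools of the authors for trimming, alignment and counting of uniquely mapped reads over exons. Their deposited table holds raw counts for each gene and library, with no normalization. The submitters' processing notes name bcl2fastq 2.20 and the build WBcel235. The strand setting of the counting is not given in the sources used here, so the split of reads between genes on opposite strands is uncertain, and so is that between near-identical copies.

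Groups came from the sample labels. Each mutant was compared with N2, 3 libraries against 3, in edgeR 4.0.16 under R 4.3.3 (TMM scaling, filterByExpr, quasi-likelihood test), with p-values adjusted by Benjamini-Hochberg over all genes tested and a threshold of 0.05. Counting error is small at these library totals except for rare transcripts such as *ife-4* and *ife-5*. Elsewhere the spread between libraries sets the precision. A 5-strain test used all 15 libraries. Standard errors were taken from the fold change and its F statistic. Printed CPM values are scaled by TMM over all 15 libraries, whereas counts of genes with no overlap use the 6 libraries of a comparison. Exon lengths, positions and biotypes came from the Ensembl 115 annotation, and RefSeq gave the note on *cars-2*.

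Same-numbered libraries of *nrx-1* (*tm1961*) and N2 deviated together in replicates 1 and 3 and little in replicate 2 (correlations of 0.729, 0.647 and 0.176 over genes). The block was chosen for that strain from these values, with no threshold stated here. Replicates 2 and 3 of *nrx-1* (*ok1649*) had higher correlations (0.248 and 0.283) than replicate 2 of *nrx-1* (*tm1961*). Adjusted p-values with the block thus follow a choice made on the same counts. The pairing rests on these correlations alone, since no label states a shared batch. No 2 replicates agreed within sampling noise (lowest chi-square per degree of freedom 28.3 over 15 pairs).

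Named genes were the 3 higher and 3 lower members with the smallest p in each strain, with the 5 eIF4E genes, *ifg-1*, the 6 elongation factors and 3 synthetase pairs fixed by role. The other members named, among them *pars-1*, *tars-1* and the eIF2, eIF2B and eIF3 subunits, were chosen after their values were seen. The members and lists were chosen with earlier results of these data known. Alternatives were DESeq2 1.42.0, a joint fit, other scalings and filters, a replicate block, the noncoding share as a covariate over all 15 libraries and leaving out each library. The count tests were tested on simulated data, at a dispersion of 0.05 and at that of the libraries (common dispersion of 0.241 to 0.344). At the dispersion of the libraries edgeR recovered few of the changes put in, so that a member with no call is not shown to be unchanged.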

Additional observations from a re-analysis of the deposited data

Results flagged for a closer look

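In 3 genes the libraries of 2 strains lay on opposite sides of N2: all 3 *nlg-1* (*tm474*) libraries were above every N2 library and all 3 *nrx-1* (*tm1961*) libraries below. The log2 fold change in *nlg-1* (*tm474*) minus that in *nrx-1* (*tm1961*) was 0.93 for *iars-1*, the isoleucyl-tRNA synthetase gene, 0.62 for *sars-1*, the seryl-tRNA synthetase gene, and 0.97 for *eif-3.C*, an eIF3 core subunit gene. *iars-1* had 346, 227 and 265 CPM in *nlg-1* (*tm474*) and 117, 130.4 and 149 CPM in *nrx-1* (*tm1961*), against 207, 194 and 172 CPM in N2. *sars-1* had 223, 146 and 159 CPM in *nlg-1* (*tm474*) and 77.9, 115 and 118 CPM in *nrx-1* (*tm1961*), against 142, 135 and 138 CPM in N2. *eif-3.C* had 411, 310.3 and 309 CPM in *nlg-1* (*tm474*) and 123, 195 and 159 CPM in *nrx-1* (*tm1961*), against 245, 252 and 243 CPM in N2. No fold change of these genes passed the test in either strain, and the difference between the strains, which were set against the same N2 libraries, was not tested.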

How the results depend on the processing

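The number of members called depended on the fit. In *nrx-1* (*tm1961*) it was 0 without a block, 22 in DESeq2 and 30 with the replicate block, and 0 to 34 when each library was left out in turn. In *nlg-1* (*ok259*) it was 0, with 1 in DESeq2 and 0 to 35 over left-out libraries, and in *nrx-1* (*ok1649*) 0, with 0 to 47. The highest count of each came without the strain's own replicate 1. The block changed no call among members in the 3 strains other than *nrx-1* (*tm1961*), but it moved fold changes there. The elongation factor median went from -0.58 to -1.67 in *nrx-1* (*ok1649*) and from -0.95 to -1.72 in *nlg-1* (*ok259*). In *nlg-1* (*tm474*) it went from -0.02 to -0.14. With the block that median was -1.71 in *nrx-1* (*tm1961*), so a low median was not particular to that strain in this fit. Correlations with the same-numbered N2 libraries were -0.132 to 0.283 in *nrx-1* (*ok1649*), -0.396 to 0.048 in *nlg-1* (*ok259*) and -0.727 to -0.177 in *nlg-1* (*tm474*). Replicates 2 and 3 of *nrx-1* (*ok1649*) (0.248 and 0.283) were above replicate 2 of *nrx-1* (*tm1961*) (0.176). The ars-2 minus ars-1 difference of *nrx-1* (*tm1961*), 0.97, was 0.42 with the noncoding share as a covariate and 0.84 to 1.04 over left-out libraries. In *nlg-1* (*tm474*), 0.04, it was -0.19 with the covariate. That covariate also turned the log2 fold change in *nrx-1* (*tm1961*) to -0.11 for *ife-4*, 0.48 for *kars-1*, 0.92 for *eef-1A.1*, 0.36 for *eef-2*, 0.41 for *ife-1*, 0.97 for *ife-3*, 0.083 for *ife-5*, 0.29 for *ifg-1*, 0.59 for *eef-1B.1*, 0.68 for *eef-1B.2*, 1.07 for *eef-1G*, 0.15 for *aars-1*, 0.68 for *aars-2* and 0.17 for *sars-1*. In all, 43 of the 47 members below 0 in that strain were above 0 with the covariate and 1 of the 21 above 0 below, the members named outside the rule included. Most members below 0 in each other mutant turned as well. The median over the 68 members was then 0.44 for *tm1961*, 0.43 for *ok1649*, 0.90 for *ok259* and 0.59 for *tm474*. Over left-out libraries *aars-1* in *nrx-1* (*tm1961*) lay between -0.47 and 0.093, above 0 without *nrx-1* (*tm1961*) replicate 1 or without N2 replicate 3 (0.02). Of 624 alternative fits of 39 named fold changes, 16 turned direction, 48 gained a call and 560 did neither; the cause was not tested. Other scalings moved the median of all genes by -0.14 to 0.15 (log2), and the covariate by 0.04 to 0.16. The alternatives added after seeing the data left the count of calls at 0 (edgeR's bias-adjusted mode) and changed the direction of an ars-2 minus ars-1 difference in no strain but *nlg-1* (*ok259*), at 0.15 with the genes placed by known product. A grouping by annotated compartment could not be run, since the reference tables name none.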
